A study of Mus musculus with 2 samples.

Results

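The Wnt and beta-catenin pathway was examined in cultured mouse primordial germ cells (PGCs), the embryonic precursors of sperm and eggs, with and without over-expression of Klf9. The pathway was represented by 43 genes: Wnt ligands and the proteins that secrete them, receptors, the destruction complex, TCF and LEF factors, secreted antagonists and feedback targets. Genes were found by symbol, and the values of entries with the same symbol were summed. Of the 43 genes, 41 had a value under their own symbol in both libraries, among 23320 symbols that did. The others, Dvl1 and Gsk3a, were each joined to a neighbouring gene in 1 library.

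The control PGC library came from PGCs infected with a control lentivirus and the Klf9-OE library from PGCs infected with a lentivirus that carried the Klf9 coding region, both at an MOI of 5 and both cultured for 1 day. Both libraries share their source: cells with strong GFP, sorted from dissociated E13.5 genital ridges that carried the Oct4-deltaPE-GFP transgene, where a germ cell enhancer drives the GFP. Embryos of both sexes were dissected, cells were plated on gelatin, and the labels do not say how many embryos or which of several empty or mCherry control vectors were used. The labels give the medium as containing bFGF, whereas the text of the study describes this culture as lacking bFGF. With 1 library per condition there was no replicate, no p-value was calculated, and differences between cultures and differences due to Klf9 cannot be told apart.

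Expression is given as RPKM, reads scaled to exon length and to the mapped reads of the library, so that levels can be compared between genes. The error beside each value is the deposited 95% interval of the estimate, which covers the estimate within a library and not the spread between cultures. Klf9 itself was at 2.27 (1.97 to 2.57) in control and 80.8 (77.0 to 84.5) in Klf9-OE PGCs, and endogenous and vector transcripts are not separated. Read numbers were calculated for each value from the width of its interval. By this measure the Klf9-OE library counted 1.22 times as many reads as the control library. A wider interval gives fewer implied reads, and error in assigning reads to transcripts also widens it. Implied reads can therefore misstate the reads present: Chd8 had 16.2 in control and 2296 in Klf9-OE PGCs, at an RPKM of 23.0 and 24.3. For Klf9, on assembled transcripts in both libraries, they were 230 and 1825. Its depth-corrected read ratio was 0.183 times its RPKM ratio of 35.6. Read numbers from 1 to 9 were even for 87.8% of 1809 genes in the Klf9-OE library and 36.2% of 2170 genes in the control library. If Klf9-OE reads were counted in pairs, the Klf9-OE intervals are too narrow and the library holds 0.61 times the reads of the control library. Calls were therefore also counted with the Klf9-OE intervals widened by the square root of 2. Read ratios corrected for depth do not depend on this, since counting every read in pairs would scale a gene and the library alike.

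In the canonical pathway, Wnt ligands bind a Frizzled receptor and an Lrp co-receptor, Dishevelled proteins relay the signal, and the complex of Axin, Apc and Gsk3 stops marking beta-catenin for destruction. Beta-catenin then enters the nucleus, where it joins TCF and LEF factors at genes such as Axin2, Sp5 and T, several of which feed back on the pathway. In the gonad, R-spondin 1 and Wnt4 are known for their roles in ovary development, and in pluripotent stem cells the pathway is known for its part in self-renewal. Most control of beta-catenin acts on the protein, which RNA levels do not measure.

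Promoter sequences are shown for 3 target genes of the pathway, because the TCF and LEF factors described below bind a short motif of this kind and because Klf factors bind GC boxes and CACCC elements. Each runs 5′ to 3′ over the 250 bases before the gene's start in RefSeq (GRCm38.p6, the mm10 build). In Sp5 (chr2:70474673-70474922, plus strand) and T (chr17:8434173-8434422, plus strand) the capitals mark a TCF/LEF motif on either strand. In Axin2 (chr11:108920099-108920348, plus strand), whose window held none, the capitals mark GC boxes and CACCC-like motifs. Axin2 held 2 GC boxes and 2 CACCC-like motifs. T held 2 and 5 and Sp5 held 0 and 2, which are left in lower case, so these motifs are not particular to Axin2.
Sp5: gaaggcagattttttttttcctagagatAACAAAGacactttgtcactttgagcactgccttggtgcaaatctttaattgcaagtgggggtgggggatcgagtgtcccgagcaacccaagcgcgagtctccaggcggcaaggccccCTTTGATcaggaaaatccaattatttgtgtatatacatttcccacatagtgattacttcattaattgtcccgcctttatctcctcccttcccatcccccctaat
T: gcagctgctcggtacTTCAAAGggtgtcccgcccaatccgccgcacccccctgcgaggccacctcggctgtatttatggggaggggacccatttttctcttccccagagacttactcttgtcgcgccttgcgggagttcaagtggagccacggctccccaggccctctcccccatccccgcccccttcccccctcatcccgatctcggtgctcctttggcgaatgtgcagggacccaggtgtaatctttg
Axin2: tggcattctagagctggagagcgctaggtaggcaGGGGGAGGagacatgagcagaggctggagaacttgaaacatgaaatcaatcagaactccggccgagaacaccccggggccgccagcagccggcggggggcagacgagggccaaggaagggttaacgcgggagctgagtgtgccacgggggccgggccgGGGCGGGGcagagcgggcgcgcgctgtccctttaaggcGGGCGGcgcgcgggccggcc

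The motifs searched on both strands were CTTTG followed by AA, AT, TA or TT for TCF/LEF, GGGCGG for the GC box and CCNCNCCC for the CACCC-like element, which overlaps many GC boxes and also matches runs of C. The Sp5 motifs began 222 and 104 bases before the start, and that of T began 235 bases before it. RefSeq promoters were available for 28 of the 43 genes, with 35 starts. A TCF/LEF motif was present in 7 of the 35 (20%) and in 14.8% of all 32851 promoters. The GC box was present in 65.7% of the 35 and 32.7% of all promoters, and the CACCC-like element in 85.7% and 45.9%. The comparison with all promoters was not matched for base composition or expression, and some of the 35 windows overlap, as in Ctnnb1 and Lef1. The higher shares are therefore not read as a trait of the pathway. These are matches of letters and not sites of binding.

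Across the pathway, most genes were at close to the same level in both libraries. The summed RPKM of the 41 genes was 507 in control and 491 in Klf9-OE PGCs. The median log2 fold change, the difference of log2(RPKM + 0.1) between Klf9-OE and control, was -0.04 over the 41 genes and -0.02 over all 18742 genes with a value above 0 in at least 1 library. It was above 0 for 17 genes and below 0 for 24. When the RPKM of both libraries was scaled to the same sum, the median of the 41 genes was 0.02, so its sign depended on the scaling.

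At least 2-fold differences were few. Wnt3, Lgr5 and Nkd2 were higher by 2-fold or more with Klf9-OE, which is 3 of 41 genes (7.32%) against 9.82% of all genes, and Fzd9, Dkk1 and Dkk3 were lower by as much, again 7.32%, against 9.43% of all genes. Both shares are near or below those of all genes. Among the 34 genes that reached an RPKM of 1 in either library, Wnt3 and Nkd2 were higher (5.88%, against 3.93% of all genes at this level) and Dkk3 was lower (2.94%, against 3.79%). The higher share rests on Wnt3 and Nkd2, whose values are uncertain for reasons given with each below. Among the pathway genes above 0 in both libraries, 2 were higher by 2-fold or more (Wnt3 and Lgr5) and 4 were higher with intervals apart at an RPKM of 1 or more.

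Smaller differences were judged by whether the deposited intervals of the libraries overlapped. Of the 34 genes, 5 were higher in Klf9-OE PGCs with intervals apart (14.7%, against 14.8% of all genes at this level): Wnt3, Fzd1, Lrp6, Dvl3 and Nkd2. Another 10 were lower (29.4%, against 20.2% of all genes): Fzd2, Fzd10, Dvl2, Axin1, Axin2, Lef1, Tcf7l1, Dkk3, Sfrp1 and Notum. The intervals of the remaining 19 overlapped. With the Klf9-OE intervals widened, 4 were higher and 9 lower, and Fzd1 and Tcf7l1 no longer counted. Scaled to the same sum, 8 were higher and 8 lower, with Apc, Gsk3b and Znrf3 gained as higher and Tcf7l1 and Sfrp1 lost as lower, while the shares over all genes became 20.6% and 14.9%.

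**Figure D1:**
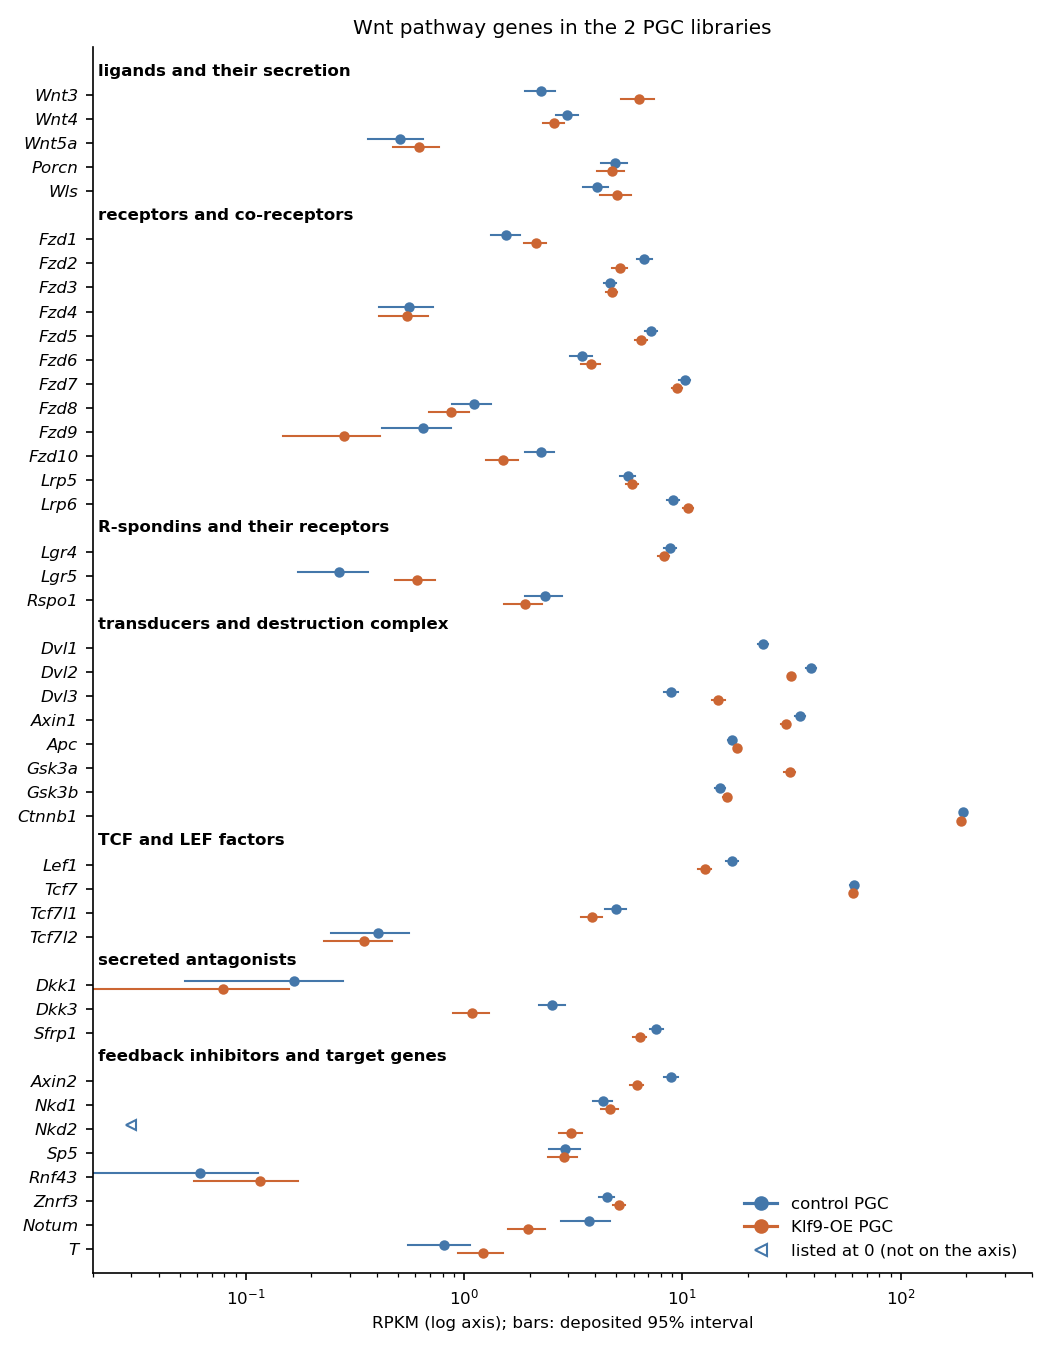
RPKM (log axis) of each pathway gene in the control PGC library (blue) and the Klf9-OE PGC library (orange), by role, with the deposited 95% interval as bars; Nkd2 in control is listed at 0 and drawn as an open triangle off the scale. Ctnnb1 is the highest gene in both libraries, at 194 and 189, and most pairs of points lie close together.

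The files mix 2 kinds of gene model, which bears on every ratio. For some genes the RPKM belongs to the reference transcript alone, and for others it was estimated on transcripts assembled from that library's own reads, so the models compared can differ. Of the 41 genes, 21 had reference transcripts in both libraries, 15 of them at an RPKM of 1 or more in either. Among these 15, only Fzd1 was higher with intervals apart (13.3% of all such genes were), 5 were lower (Fzd2, Fzd10, Tcf7l1, Dkk3 and Sfrp1, where 16.9% of all such genes were), and 9 overlapped. This restriction was chosen after the values had been seen.

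Among the ligands and the proteins that secrete them, Wnt3 was the one gene with intervals apart. Wnt3, a ligand of the canonical pathway (chr11:103774150-103817957 in mm10, plus strand), was at 2.26 (1.90 to 2.62) in control and 6.33 (5.24 to 7.43) in Klf9-OE PGCs, a ratio of 2.80 (2.21 to 3.54) and a log2 fold change of 1.44. The reads implied by these intervals did not move the same way: 159 in control and 133 in Klf9-OE PGCs. Both libraries used assembled transcripts for Wnt3, and in control PGCs a separate locus without a gene name lay inside the gene (chr11:103810536-103811295) with 25.8 reads. The read ratio after correction for depth was 0.69, on the other side of 1 from the RPKM ratio, so the direction for Wnt3 is not settled by these files.

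The other ligands differed little. Wnt4, the ovary-promoting ligand, was at 2.98 (2.63 to 3.33) in control and 2.59 (2.30 to 2.89) in Klf9-OE PGCs, with overlapping intervals and reference transcripts in both libraries. Wnt5a, best known as a ligand of beta-catenin-independent signalling, was at 0.509 and 0.624. Porcn, the enzyme that attaches the fatty acid Wnts need for secretion, was at 4.92 and 4.75. Wls, which carries Wnts to the cell surface, was at 4.05 (3.51 to 4.59) and 5.01 (4.20 to 5.82), while its implied reads were 225 and 152. For Wls, as for Wnt3, the RPKM was higher and the depth-corrected implied reads were lower in Klf9-OE PGCs.

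All 10 Frizzled receptors were detected, from Fzd7 at 10.3 (9.69 to 10.8) in control PGCs down to Fzd4 at 0.563 (0.408 to 0.718). The order at the top was shared: Fzd7, Fzd5 and Fzd2 led in both libraries, at 10.3, 7.19 and 6.71 in control and 9.49, 6.50 and 5.18 in Klf9-OE PGCs. The control intervals of Fzd5 (6.74 to 7.64) and Fzd2 (6.18 to 7.25) overlapped, so these neighbours in the order were not separated there. In Klf9-OE PGCs the interval of Fzd2 (4.75 to 5.61) overlapped that of Fzd3 (4.46 to 5.04), so the third place was not separated there. Of the 10 receptors, 9 had reference transcripts in both libraries, Fzd3 being the exception, and for each of the 9 the read ratio matched the RPKM ratio within 10%. The depth correction was itself set on genes with reference transcripts and a single start. Such a match therefore adds no separate evidence to the RPKM ratio.

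Of these receptors, 4 had intervals apart. Among all genes at an RPKM of 1 or more in either library, 14.8% were higher and 20.2% lower with intervals apart. Fzd9 was below that level in both libraries. Fzd2 was at 6.71 (6.18 to 7.25) in control and 5.18 (4.75 to 5.61) in Klf9-OE PGCs, 0.772 times the control. Fzd10 was at 2.24 (1.90 to 2.59) and 1.52 (1.26 to 1.77), 0.677 times the control. Fzd9, a low receptor gene, was at 0.648 (0.424 to 0.872) and 0.281 (0.148 to 0.414), 0.434 times the control (0.242 to 0.779) on 33.4 and 17.98 reads. Its intervals overlapped when the Klf9-OE interval was widened, and also with both libraries scaled to the same sum. These 3 were lower in Klf9-OE PGCs, and Fzd1 was higher, at 1.57 (1.33 to 1.80) and 2.14 (1.89 to 2.39), 1.37 times the control, with intervals that overlapped once widened.

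The other Frizzled genes overlapped between libraries. Fzd3 was at 4.68 and 4.75, Fzd6 at 3.47 and 3.82, Fzd4 at 0.563 and 0.547, and Fzd8 at 1.11 and 0.871. Lrp5 and Lrp6 encode the co-receptors. Lrp5 was at 5.64 (5.16 to 6.11) and 5.91 (5.53 to 6.29). Lrp6 was at 9.08 (8.54 to 9.62) in control and 10.6 (10.1 to 11.2) in Klf9-OE PGCs, a ratio of 1.17 with intervals apart. Both libraries used assembled transcripts for Lrp6, and its depth-corrected read ratio was 0.971, on the other side of 1 from the RPKM ratio.

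R-spondins strengthen Wnt signalling through Lgr receptors, which keep the ubiquitin ligases Rnf43 and Znrf3 from removing Frizzled. Lgr5, also a stem cell marker of the intestine (chr10:115450311-115587780 in mm10, minus strand), was at 0.269 (0.174 to 0.363) in control and 0.611 (0.484 to 0.739) in Klf9-OE PGCs, a ratio of 2.27 (1.51 to 3.43) and a log2 fold change of 0.95. Its implied reads were 32.3 and 91.8, both libraries used the reference transcript, and the widened intervals were still apart. The read ratio matched the RPKM ratio after correction for depth, which, as for the Frizzled genes, is no separate evidence. Lgr5 was higher by RPKM in the Klf9-OE library, at a level below 1 RPKM in both libraries. It no longer counted as 2-fold higher with a pseudocount of 0.1 in the ratio. Lgr4, the most abundant of this group, was at 8.81 (8.21 to 9.41) and 8.24 (7.79 to 8.69). Rspo1 was at 2.36 (1.90 to 2.82) and 1.90 (1.53 to 2.27), with overlapping intervals.

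**Figure D2:**
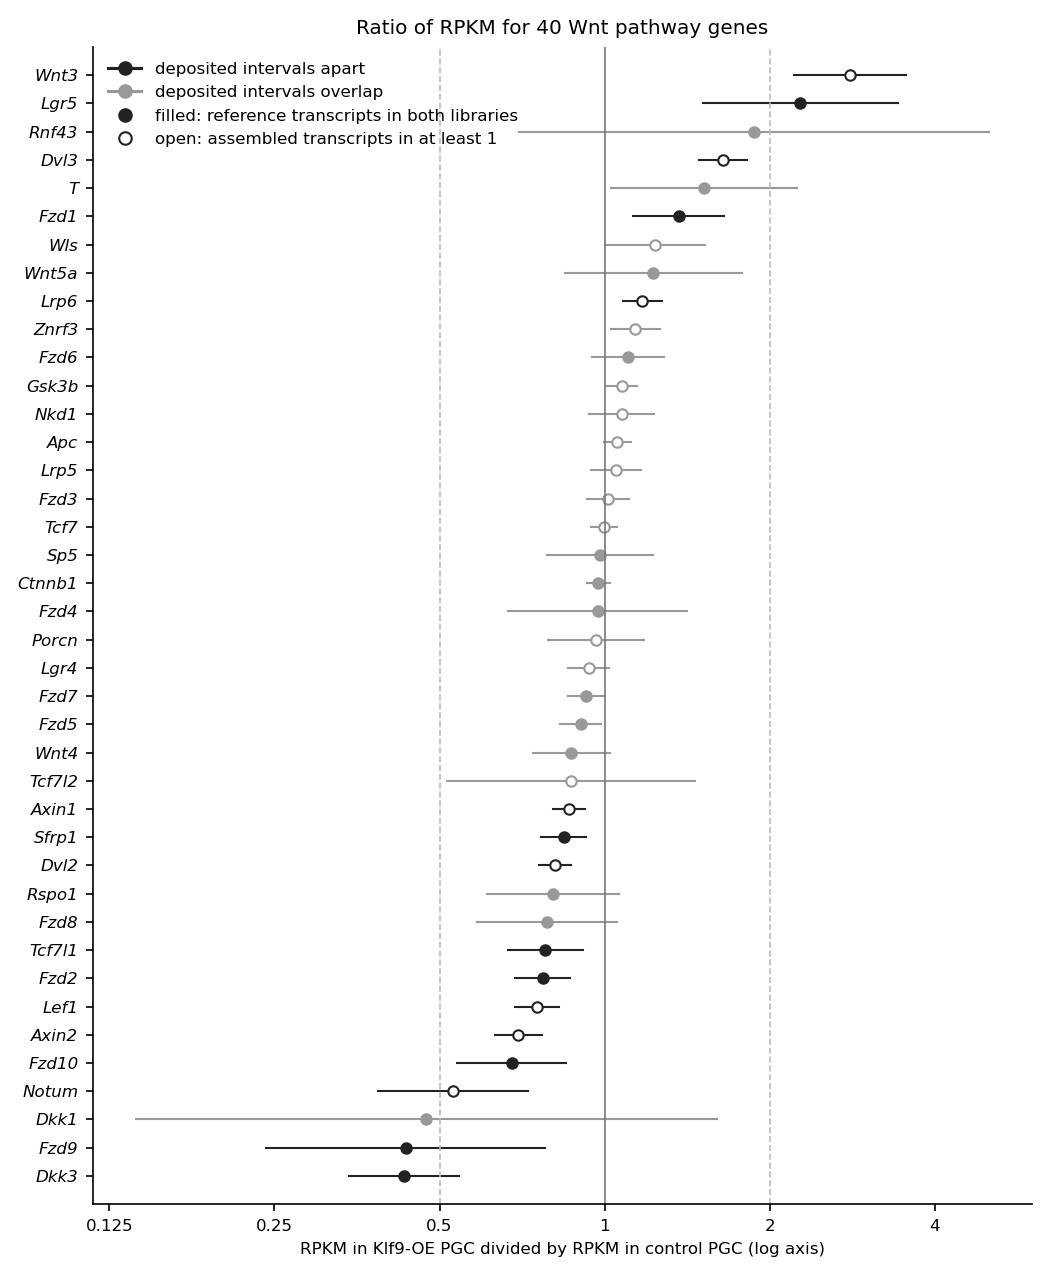
Ratio of RPKM in Klf9-OE PGCs to that in control PGCs (log axis) for the 40 genes above 0 in both libraries, with bars for the interval combined from both deposited intervals and dashed lines at 0.5 and 2. Black marks genes with intervals apart, and of these Lgr5, Fzd1, Sfrp1, Tcf7l1, Fzd2, Fzd10, Fzd9 and Dkk3 are filled, meaning reference transcripts in both libraries.

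The core of the pathway was abundant and differed little in RPKM. Ctnnb1, which encodes beta-catenin, was at 194 (187 to 200) in control and 189 (182 to 195) in Klf9-OE PGCs, a ratio of 0.975 (0.929 to 1.02). Its implied reads were 3447 and 3405, a depth-corrected read ratio of 0.810, although both libraries used reference transcripts. The size of any difference in Ctnnb1 is therefore less certain than its RPKM interval shows. Apc, a large protein of the destruction complex, was at 16.95 (16.2 to 17.7) and 17.9 (17.2 to 18.6). Gsk3b, one of the kinases that phosphorylate beta-catenin, was at 14.9 (14.2 to 15.7) and 16.0 (15.4 to 16.7). The intervals of these 3 genes overlapped. Axin1, the scaffold on which Apc and Gsk3 assemble, was at 34.7 (33.0 to 36.4) and 29.9 (28.5 to 31.2), 0.861 times the control with intervals apart. Both libraries used assembled transcripts for Axin1, and its depth-corrected read ratio was 0.959.

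The Dishevelled genes could not be read from RPKM alone. Dvl2 was at 39.0 (36.8 to 41.1) in control and 31.6 (30.4 to 32.8) in Klf9-OE PGCs, but its implied reads were 1292 and 2900. Acadvl, the neighbouring gene, went from 1227 to 3432 implied reads at an RPKM of 47.9 and 51.5. The annotated spans of Dvl2 and Acadvl overlap, and the library kit does not separate reads by strand. Their loci in both libraries did not overlap, since Dvl2 ended at 70010109 and Acadvl began at 70010183. Mixing of reads between them was not tested. Dvl3 was at 8.91 (8.26 to 9.56) and 14.6 (13.6 to 15.6), a ratio of 1.64 (1.49 to 1.82), on 751 and 838 reads. The Dvl3 model ended earlier in the Klf9-OE library, and a locus without a gene name (chr16:20532705-20533998) held 298 reads there inside the gene. After correction for depth the read ratio of the named Dvl3 entry was 0.914. That ratio leaves out the 298 reads of the unnamed locus, so it does not settle the direction for the whole gene.

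Dvl1 and Gsk3a could be compared only together with their neighbours. Dvl1 was at 23.4 in control PGCs, beside Cpsf3l at 44.2, and the joined entry in Klf9-OE PGCs was at 73.0 against a control sum of 67.7, a ratio of 1.08. Gsk3a was at 31.1 in Klf9-OE PGCs, beside Erf at 13.7, and the joined entry in control PGCs was at 49.2 against a sum of 44.7, a ratio of 0.909. These sums add values estimated on different transcript models.

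Of the 4 TCF and LEF factors, Lef1 and Tcf7l1 were lower in Klf9-OE PGCs with intervals apart, as were 20.2% of all genes. The call of Tcf7l1 ended with the widened interval and with scaling to the same sum, which left Lef1 alone. Tcf7, the most abundant of them, was at 61.1 (58.8 to 63.4) in control and 60.9 (58.5 to 63.3) in Klf9-OE PGCs, a ratio of 0.996. Both libraries used assembled transcripts for Tcf7, and its implied reads were 2777 and 2576. Its depth-corrected read ratio was 0.760, beside 0.780 for Lef1, so implied reads did not set Tcf7 apart from Lef1. Lef1 was at 16.9 (15.8 to 17.99) and 12.7 (11.9 to 13.54), a ratio of 0.752 (0.685 to 0.825). Tcf7l1, mainly a repressor in pluripotent cells, was at 4.97 (4.42 to 5.51) and 3.87 (3.44 to 4.31), a ratio of 0.780. The implied reads of Lef1 (955 and 908) and Tcf7l1 (333 and 321) moved with their RPKM after correction for depth. Tcf7l2 was low, at 0.403 and 0.350, with overlapping intervals. The order Tcf7, Lef1, Tcf7l1, Tcf7l2 was the same in both libraries, and no neighbouring intervals in it overlapped.

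All 3 secreted antagonists had a lower RPKM in Klf9-OE PGCs. Of these, Dkk3 and Sfrp1 were lower with intervals apart, as were 20.2% of all genes at an RPKM of 1 or more. The direction was not shared by 13 other secreted or membrane inhibitors, of which 8 had a log2 fold change above 0 and 5 below 0. Dkk3, a Dickkopf family member whose effect on Wnt signalling depends on context (chr7:112116017-112159057 in mm10, minus strand), was at 2.55 (2.20 to 2.89) in control and 1.09 (0.892 to 1.30) in Klf9-OE PGCs, a ratio of 0.430 (0.342 to 0.542) and a log2 fold change of -1.15. Both libraries used the reference transcript for Dkk3. Its 215 and 116 implied reads match the RPKM ratio after correction for depth, which for such a gene is no separate evidence. Dkk3 was the gene of the pathway with the lowest ratio, closely followed by Fzd9, whose interval holds that of Dkk3. Sfrp1, which binds Wnts outside the cell, was at 7.60 (7.08 to 8.12) and 6.40 (5.97 to 6.83), a ratio of 0.842. Dkk1, an inhibitor that binds Lrp co-receptors, was at 0.166 (0.0530 to 0.279) and 0.0785 (0 to 0.158) on 8.63 and 3.90 reads, too few to separate the libraries.

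The feedback inhibitors and target genes did not move in a single direction. Axin2, a target gene of the pathway and an inhibitor of it (promoter shown above), was at 8.90 (8.28 to 9.51) in control and 6.20 (5.77 to 6.63) in Klf9-OE PGCs, a ratio of 0.696 (0.631 to 0.768). Its implied reads were 830 and 832 in libraries whose depth differed 1.22-fold, and its control value came from assembled transcripts. Sp5, whose window held 2 TCF/LEF motifs, was at 2.92 (2.44 to 3.39) and 2.86 (2.43 to 3.29), with no separation. T, or brachyury, a mesoderm gene with 1 such motif, was at 0.808 (0.553 to 1.06) and 1.23 (0.945 to 1.51), a ratio of 1.52 with overlapping intervals.

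Notum, an enzyme that inactivates Wnts by removing their lipid, was at 3.74 (2.80 to 4.67) in control and 1.97 (1.60 to 2.35) in Klf9-OE PGCs, a ratio of 0.528. Its implied reads went the other way, from 63.6 to 111, and both libraries used assembled transcripts. Nkd1, which binds Dishevelled, was at 4.33 (3.89 to 4.76) and 4.65 (4.23 to 5.07). Znrf3 was at 4.52 (4.18 to 4.87) and 5.14 (4.80 to 5.49), and Rnf43 was at 0.0619 and 0.116 on 5.51 and 16.0 reads, which left the intervals of each overlapping.

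Nkd2, the paralogue of Nkd1, was listed at 0 in control and at 3.11 (2.74 to 3.48) in Klf9-OE PGCs, on 283 reads. The zero was that of an assembled transcript, and a locus without a gene name at the end of the gene (chr13:73818450-73819141; the gene spans chr13:73818534-73847631, minus strand) was at 2.38 (1.54 to 3.23) in the control library on 31.9 reads. In Klf9-OE PGCs, 2 such loci were at 6.16 and 3.90. Of 9024 assembled named loci in the control library, 447 were listed at 0, and 76 of these reached an RPKM of 1 in the other library. No fold is given for Nkd2, since a value of 0 here can be a failed estimate.

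**Figure D3:**
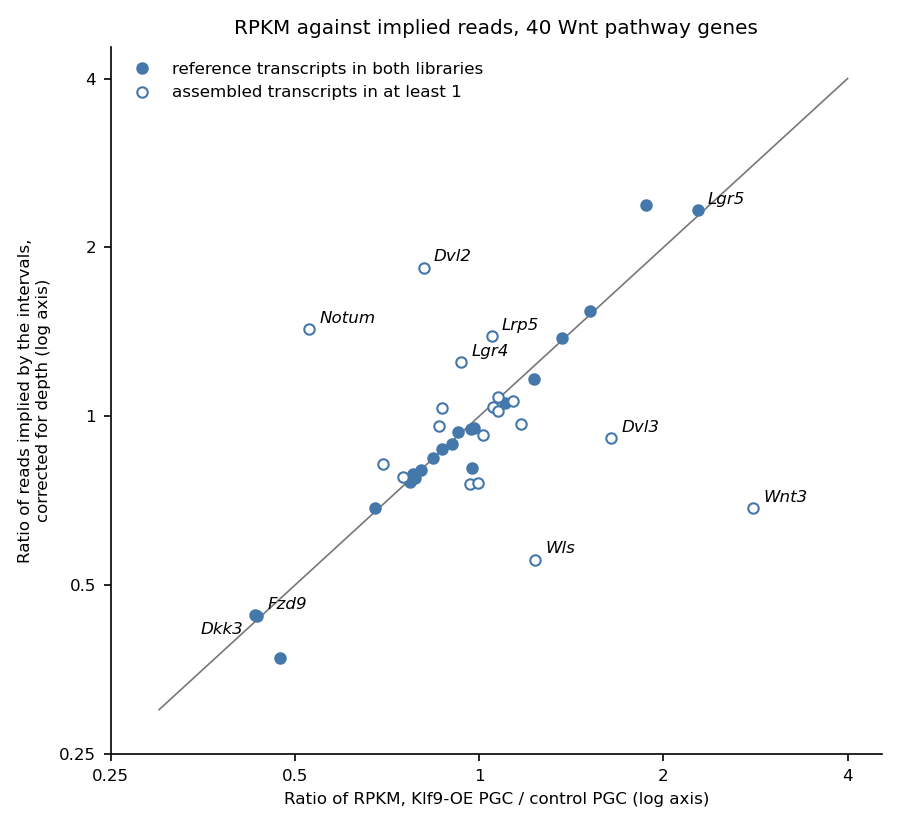
Ratio of implied reads after correction for depth against ratio of RPKM, Klf9-OE over control, for the 40 genes above 0 in both libraries (both axes log; the line marks equality; filled points have reference transcripts in both libraries). Dkk3, Fzd9 and Lgr5 lie on the line, whereas Wnt3, Dvl3 and Wls lie below it and Dvl2 and Notum above it.

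The remaining genes of the pathway were read from 8 lists with 115 genes, of which 113 could be compared and 78 reached an RPKM of 1 in either library. Of these 78, 15 were higher and 17 lower in Klf9-OE PGCs with intervals apart (19.2% and 21.8%, against the 14.8% and 20.2% of all genes given above). With the Klf9-OE intervals widened these counts were 13 and 14. The 10 other receptors and R-spondins included 7 at this level, of which none was higher and 5 were lower with intervals apart: Ryk, Ror2, Ptk7, Rspo2 and Rspo4. The 23 other target genes compared included 17 at this level, of which 7 were higher (5 with widened intervals) and 1 was lower, with a median log2 fold change of 0.19. Plaur, the urokinase receptor, was the only one of the 78 genes at least 2-fold apart with intervals apart, at 2.77 (2.18 to 3.36) and 8.69 (7.75 to 9.63), a ratio of 3.13 on 88.9 and 342 reads.

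Of the 16 other Wnt ligands only 2 reached an RPKM of 1, and neither these nor the 4 such genes among 13 other inhibitors had intervals apart. Among genes at this level, the other destruction complex regulators had 2 of 15 higher and 3 lower, the nuclear cofactors 2 of 17 higher and 5 lower (3 with widened intervals), the planar cell polarity genes 1 of 10 higher and 2 lower (1 with widened intervals), and the adherens junction partners of beta-catenin 3 of 6 higher and 1 lower.

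Markers of several cell types also differed between the libraries, and their part in the values above was not tested. The germ cell label held in both, with Dazl at 351 and 378 and Ddx4, the vasa gene, at 299.9 and 292. Of 10 germ cell markers, 8 were lower with intervals apart (20.2% of all genes were) and 1, Dazl, was higher (14.8% of all genes were), and the call of Dazl ended with the widened interval. Their summed RPKM was 1759 in control and 1480 in Klf9-OE PGCs.

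Of 8 markers of gonadal somatic cells, 4 were higher with intervals apart (Wt1, Gata4, Lhx9 and Star), as were 14.8% of all genes. None was lower, where 20.2% of all genes were, and the sums were 17.5 and 25.3. These 4 calls were uneven: Gata4 lost its call with the widened interval, Star was listed at 0 in control on an assembled transcript, and Wt1 was at 3.41 and 5.64 on 266 and 315 implied reads, a gain below the difference in depth. The sums of the mesenchyme markers were 16.4 and 23.6. Those of the endothelial markers were 20.01 and 30.4, most of it Pecam1, which germ cells also express and which was at 16.8 and 24.2 on 1048 and 220 implied reads. Cdh5, an endothelial cadherin, was at 1.995 and 5.09 with intervals apart, and Emcn at 0.0298 and 0. Tek, another endothelial marker, was lower, at 0.735 and 0.439 with intervals apart that overlapped once widened. Of the 6 endothelial markers, 4 had a log2 fold change above 0 and 2, Tek and Emcn, below 0. The macrophage markers summed to 4.23 and 5.37, with Csf1r at 0.307 and 1.18, intervals apart, and Ptprc at 0.0584 and 0.0239.

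Foxl2, which defines female supporting cells, was at 0.314 and 0.257, and the female supporting markers summed to 4.91 and 3.62. The male supporting markers summed to 8.78 and 11.1, but in opposite parts: Amh was at 5.99 and 9.29, and Sox9, the defining one, at 2.04 and 1.09, both with intervals apart. Among sex-linked genes, Xist was at 0.829 and 2.05 and Eif2s3y at 59.0 and 49.3, and the mix of sexes in the libraries was not tested. In bulk RNA fewer cells of a type and less RNA per cell cannot be told apart.

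**Figure D4:**
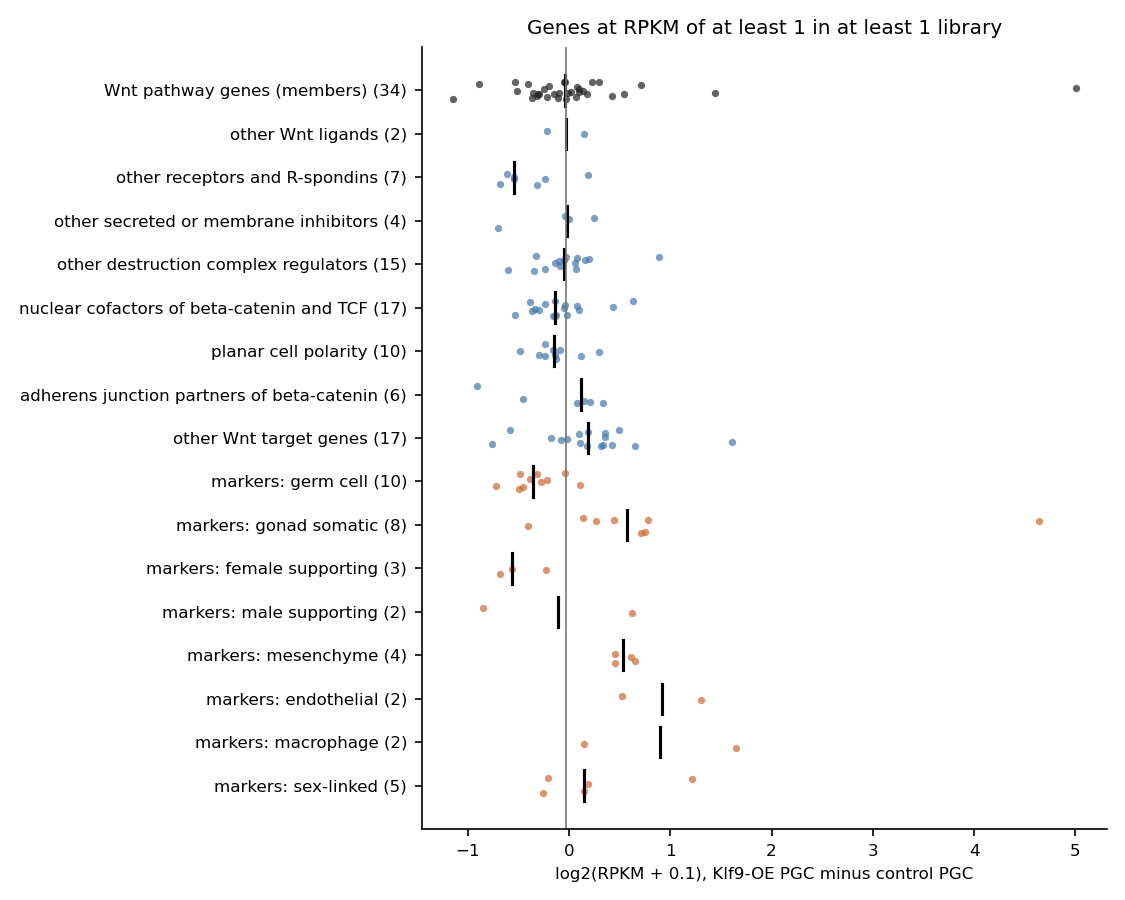
Log2 fold change (RPKM + 0.1, Klf9-OE minus control) of genes that reached an RPKM of 1 in either library, for the pathway genes (black), the other pathway lists (blue) and the marker lists (orange), with the number of genes in parentheses. Black ticks are list medians and the vertical line is the median of all genes at this level; the pathway genes lie around that line (median -0.04) and 7 of the 8 gonadal somatic markers lie to its right (median 0.58), with Nr5a1 at -0.40 to its left.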

How the data were processed

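RNA-seq libraries of control and Klf9-OE PGCs (TruSeq v2 kit, which does not mark strand) were sequenced as 51-mer single-end reads. Per the labels and methods, mapping to mm10 used TopHat2 with Bowtie. The authors deposited Cufflinks FPKM per locus and library with 95% bounds (here RPKM, since reads were single-end). The tool versions are not given in the sources used here. Read totals are not given either, so depth is known only from the intervals. Reads were calculated by dividing 2 times the RPKM by its distance to the upper bound and squaring the result, and the depth ratio as its median over 2647 genes with reference transcripts and a single start.

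Loci sharing a symbol were added. Genes at 2-fold or more in either direction, without a pseudocount, and genes with intervals apart were counted. A pseudocount of 0.1 entered the log2 fold changes, so that changes of low genes are understated. The interval of a ratio combined the relative half-widths of both libraries in quadrature on the log scale. No test across replicates was possible, since there was 1 library per group. Intervals cover counting and assignment error only.

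The 43 genes, the pathway lists and the marker lists were chosen with earlier results of these data known. Named genes were taken by rule: every one of the 43, by value where the RPKM was at least 1 in at least 1 library; from the other lists, genes that also differed at least 2-fold with intervals apart; and markers by list. The 5 receptors and R-spondins, Acadvl, and the single markers were named after their values were seen. Gene spans came from GENCODE M21 (GRCm38), promoters from RefSeq (GRCm38.p6). The alternatives were other pseudocounts, ratios, filters, scalings and interval widths. Calculations were tested on simulated reads of genes with reference transcripts, with intervals built from those reads. The simulation held no assembled transcripts, failed zeros or reads counted in pairs, so it does not bear on those problems. Calculations used Python 3.11.15, numpy 2.4.6, pandas 2.3.3 and matplotlib 3.10.9.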

Additional observations from a re-analysis of the deposited data

Results flagged for a closer look

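The control library held signal outside the named genes at Nkd2. Nkd2 was listed at 0 there, while a locus without a gene name at its end was at an RPKM of 2.38 (1.54 to 3.23) on 31.9 implied reads. It drew attention because the locus enters no comparison of named genes and its lower bound lies above 0. Such loci were not particular to Nkd2. They also lay in Wnt3, Porcn and Gsk3a in the control library. In the Klf9-OE library they lay in Porcn, Fzd4, Fzd8, Lrp6, Dvl3, Axin2, Apc and Znrf3. Their part in the ratios of these genes was not tested.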

How the results depend on the processing

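With a ratio of at least 1.5 in place of 2, 6 genes in place of 3 were higher in Klf9-OE PGCs. With a ratio of at least 4, 1 was higher (Nkd2) and 0 were lower. Of the 3 genes that were at least 2-fold lower, 1 was left with a pseudocount of 0.1, 0 with a pseudocount of 1, and 1 at an RPKM of at least 1. Of the 3 that were at least 2-fold higher, 2 were left under each of these settings, and Lgr5 was the gene lost. With both libraries scaled to the same sum, 8 genes in place of 5 were higher with intervals apart. The median log2 fold change of -0.037 became -0.017 at the same upper quartile, 0.017 at the same sum and -0.012 with scaling by the median ratio. With reference transcripts in both libraries, an alternative chosen after seeing the data, 1 gene was 2-fold higher, 1 was higher and 5 in place of 10 were lower with intervals apart, and the median was -0.143. That alternative also compares fewer genes. Of 216 log2 fold changes recomputed for 36 genes, 209 moved by less than the interval of the ratio or not at all, 7 moved by more (Dkk3 and Lgr5 with a pseudocount of 1, and 5 of Nkd2, whose ratio has no interval). None of the genes with intervals apart changed sign, but 4 genes close to 0 with overlapping intervals did in 7 recomputations: Ctnnb1, Porcn, Sp5 and Tcf7 became 0.02, 0.01, 0.03 and 0.06 at the same sum, Tcf7 also at the same upper quartile (0.02), and Tcf7 and Sp5 with scaling by the median ratio (0.02 and 0.00). No paired analysis was possible because each condition had 1 library, and for the same reason no library could be left out.

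Genes with few reads, such as Dkk1, Rnf43 and Tcf7l2, could not be separated at this depth unless their difference was large.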
